A study of Mus musculus with 8 samples.

Results

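The comparison covers type 1 conventional dendritic cells (cDC1) sorted from mouse tumours and split by their signal of enhanced green fluorescent protein (EGFP). It rests on 4 of the 8 RNA-seq libraries of the series, chosen by their titles: 2 of EGFP-positive cDC1 and 2 of EGFP-negative cDC1. The other 4 libraries are type 2 conventional dendritic cells (cDC2), divided by EGFP in the same way, with 2 libraries a group. All 8 came from MC38-EGFP tumours and carry the genotype label WT. MC38, a colon carcinoma line of the mouse, here carries EGFP and so marks tumour material with a fluorescent protein that the host does not make. The cell type field of the labels reads colon cancer for each library, so the subset and the EGFP fraction are known from the titles and from the short design text. No drug, age, gate or cell number is given in the sources used here for these groups, although the title of the series names sitagliptin, a drug that blocks the peptidase DPP4. The sources do not say either whether replicates came from separate animals, so the p-values below measure no more than the spread between these samples, and that spread may be technical.

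cDC1 depend on the transcription factors IRF8 and BATF3 and carry the chemokine receptor XCR1 and the dead-cell receptor CLEC9A. They take up material of dying cells and present its peptides on class I molecules to CD8 T cells, and in tumours they are regarded as the main carriers of tumour antigen to the lymph node. On taking up a cargo or sensing danger, dendritic cells may mature: they induce CCR7, costimulatory molecules and NF-kB target genes, raise glycolysis and stop dividing.

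The cDC1 libraries held 17869441 to 22195681 counts, and the cDC2 libraries 18201995 to 20357915. EGFP-negative cDC1 had a count for 10096 and 9602 genes in replicates 1 and 2, and EGFP-positive cDC1 for 8553 and 8208. The ribosomal RNA symbol Rn45s took 25.98% and 28.85% of the counts in the EGFP-negative and 30.71% and 35.61% in the EGFP-positive libraries. Fewer detected genes and a larger share of ribosomal RNA thus went with the EGFP-positive group, and their part in the results was not tested. Levels below are CPM, read counts scaled to each library's depth with TMM factors, in the order EGFP-negative replicate 1, EGFP-negative replicate 2, EGFP-positive replicate 1 and EGFP-positive replicate 2 unless a sentence says otherwise.

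The 2 EGFP-positive cDC1 libraries agreed poorly with each other. Across the 11394 genes that passed the low-count filter, the Pearson correlation of log2(CPM + 1) between them was 0.629, against 0.850 for the EGFP-negative cDC1 pair and 0.898 and 0.875 for the EGFP-negative and EGFP-positive cDC2 pairs. These are descriptions across genes, which are not independent replicates. Of 6944 genes at 10 CPM or more in either EGFP-positive cDC1 library, 38.2% lay within 2-fold of each other, 40.2% differed by more than 4-fold and 19.3% by more than 16-fold. The same shares for 6392 genes of the EGFP-negative cDC1 pair were 67.3%, 12.9% and 1.72%. At 100 CPM or more, 52.4% of 1446 genes lay within 2-fold in the EGFP-positive pair and 91.2% of 1210 in the EGFP-negative pair. The wider spread was thus also seen among highly expressed genes. Detection differed too: 6607 of 9626 tested genes seen in either EGFP-positive library were seen in both (68.6%), against 8593 of 10319 (83.3%) in the EGFP-negative pair.

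**Figure D1:**
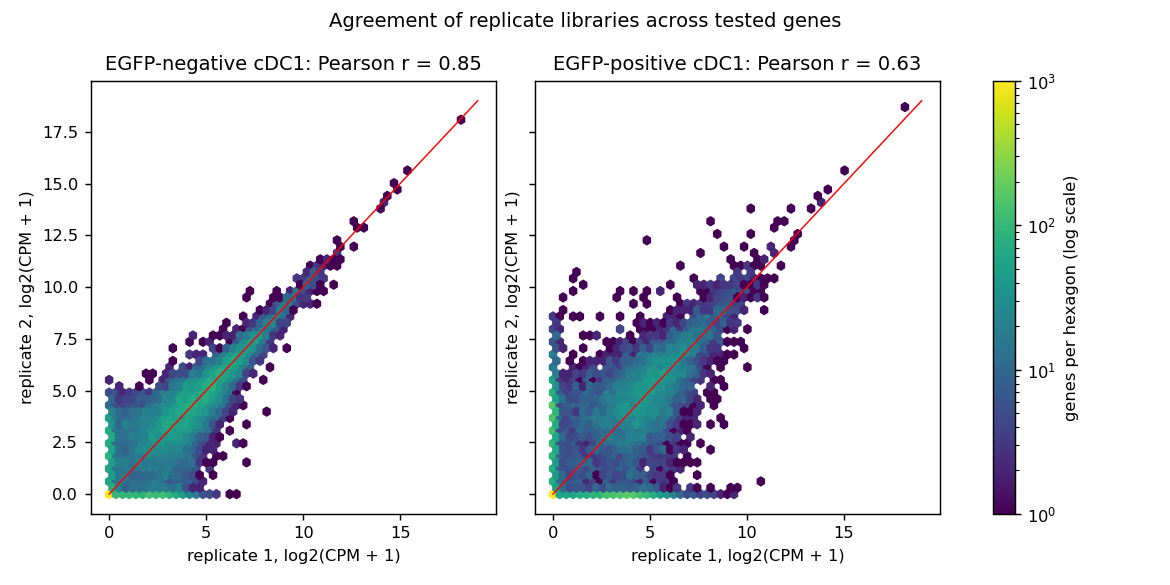
Hexagons count the tested genes by their log2(CPM + 1) in replicate 1 (horizontal) and replicate 2 (vertical), with the line of equality in red and a logarithmic colour scale. The EGFP-positive pair (right, Pearson r 0.63) spreads far wider around the line than the EGFP-negative pair (left, 0.85), with many genes along either axis.

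The genes on which the EGFP-positive replicates differed most fell into recognisable kinds. Replicate 1 had 674 CPM of Sparc, a secreted matrix glycoprotein, where replicate 2 had 0.14. It also had 1682 CPM of the neutrophil-attracting chemokine Cxcl1 against 0.561, 659 of the hyaluronan synthase Has1 against 0, and 457 of Plat, which encodes tissue plasminogen activator, against 0. In each of these genes a high level stood in 1 library of the 4: EGFP-negative cDC1 had at most 4.67 CPM of Sparc and at most 0.559 of Cxcl1. Replicate 2 had 1543 CPM of the lipoprotein gene Apoe against 1.31 in replicate 1, 1362 of arginase 1 (Arg1) against 1.27, and 831 of the lipopolysaccharide co-receptor Cd14 against 1.18. Those 3 genes are typical of tumour macrophages and monocytes. EGFP-negative cDC1 lay between, with 132 and 1.63 CPM of Apoe and 89.4 and 250 of Cd14.

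Marker lists of other cell types differed between the same 2 libraries. The 25 macrophage and monocyte markers, all tested, summed to 2571 and 3930 CPM in EGFP-negative cDC1, to 561 in EGFP-positive replicate 1 and to 14765 in replicate 2. Lyz2, the lysozyme of myeloid cells, led that sum with 1705, 2276, 290 and 8773 CPM, and Csf1r, the receptor that macrophages need for survival, had 24.6, 69.4, 1.27 and 401. Other members went the other way: Adgre1, which encodes the macrophage antigen F4/80, had 5.56, 3.73, 41.7 and 0.421 CPM, Vcan 0.0467, 0.373, 26.9 and 0, and Gpnmb 0.327, 0, 8.75 and 0. The groups overlapped for these 5, and of the 25 markers 1 (Pf4, at most 0.421 CPM) was apart and higher and 1 (Lyz1) apart and lower. Fibroblast and matrix markers, of which 10 of 18 were tested, summed to 10.6 and 18.0 CPM in EGFP-negative cDC1 and to 1269 and 266 in the EGFP-positive libraries. Sparc, Bgn, Col6a1 and Col3a1 led in replicate 1 and fibronectin (Fn1), at 231 CPM, in replicate 2. In replicate 2, Col3a1, Fbn1, Pdgfrb and Loxl2 had 0 counts. Of the 10 tested, 2 (Bgn and Col6a1) were apart and higher (20%, against 11.5% of all genes). The collagen gene Col1a1, at 1.54, 6.94, 1.23 and 0.281 CPM, was the 1 apart and lower (10%, against 24.0%). Fn1 was also present in the cDC2 libraries, at 231 to 1016 CPM. The 7 tested of 19 epithelial and MC38 tumour cell markers summed to 2.71 and 31.6 CPM in EGFP-negative and 0.0875 and 52.8 in EGFP-positive cDC1. Cdh1 led the last of these sums, with 0, 5.13, 0.0438 and 49.3 CPM, and Epcam had 0, 9.69, 0 and 0. Of the 7, 3 were apart and lower (42.9%, against 24.0% of all genes) and 0 higher (against 11.5%). These were Cldn7, Vil1 and Areg, each at 8.58 CPM or less in every cDC1 library. Of the neutrophil markers 4 of 13 were tested, with sums of 15.1 to 17.6 and 0.0438 to 33.8 CPM; of the endothelial ones 3 of 11, with 12.6 to 13.3 and 7.88 to 24.8. Among the B and plasma cell markers 2 of 11 were tested, with sums of 0 to 0.0935 CPM in EGFP-negative and 13.97 to 103 in EGFP-positive cDC1. Sdc1 made up the latter in replicate 1 and Cd79b in replicate 2. In the cDC2 libraries Sdc1 was also present, at 44.0 and 34.8 CPM without EGFP and 52.5 and 18.6 with it. Cd8a, the single tested one of 17 T and NK cell markers and a gene of cDC1 themselves, had 39.4, 3.12, 0 and 41.6 CPM. The 7 tested of 10 plasmacytoid dendritic cell markers summed to 180, 86.1, 113 and 136. The part of these transcripts in the results below was not tested. In a sorted bulk sample, fewer cells of a type and less RNA per cell cannot be told apart.

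**Figure D2:**
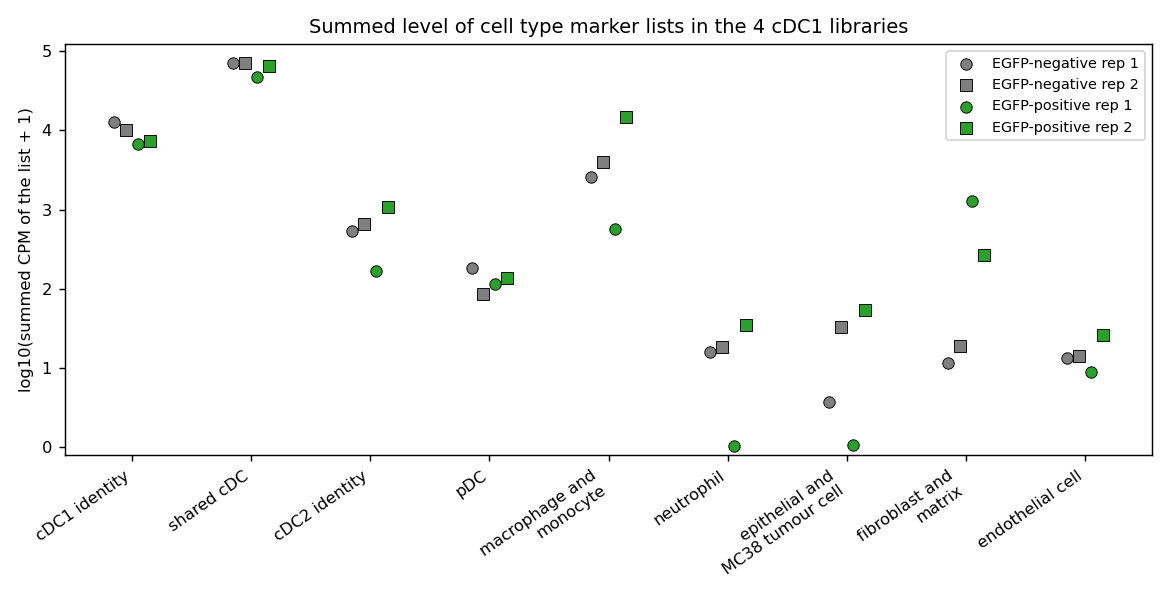
Points give log10 of the summed CPM plus 1 of each cell type marker list with at least 3 tested members (horizontal), with grey for EGFP-negative and green for EGFP-positive cDC1 and circle and square for replicates 1 and 2. The macrophage list runs from 561 CPM in EGFP-positive replicate 1 to 14765 in replicate 2, and the matrix list is highest in both EGFP-positive libraries.

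Defining cDC1 markers were present in all 4 libraries, several of them at a lower level in the EGFP-positive ones. Xcr1 stood at 309, 331, 222 and 103 CPM, Clec9a at 217, 179, 49.1 and 130, and Batf3 at 71.7, 66.7, 16.3 and 20.7. For each of these 3 the groups did not overlap, and cDC2 libraries had at most 5.31 CPM of Xcr1. Irf8, at 1485, 1032, 418 and 1318 CPM, and the adhesion molecule Cadm1, at 75.2, 79.8, 98.8 and 30.3, overlapped between the groups. The cDC2 marker Sirpa was at 3.08, 29.5, 0.0438 and 99.0 CPM, and Cd209a was at 29.1, 0.0466, 0 and 0. Of the 23 tested members among 27 cDC1 identity symbols, 15 were lower in both EGFP-positive libraries (65.2%, where 24.0% of all genes tested were) and 2, the integrin gene Itgae and Laptm4b, were higher (8.7%, where 11.5% were). The list summed to 12653 and 10129 CPM in EGFP-negative and to 6684 and 7405 in EGFP-positive cDC1. Of 13 markers shared by conventional dendritic cells 6 were lower (46.2%) and 0 higher. Among the lower ones, H2-Aa, H2-Ab1 and Cd74 were apart by 1.09-fold or less and also count in the class II list below. Dpp4 also counts among the cDC1 identity symbols. Of 17 tested cDC2 markers 6 were lower (35.3%) and 2, Klf4 and Relb, higher (11.8%), closer to the shares over all genes. The EGFP-positive replicates split over this list, which summed to 544, 651, 166 and 1066 CPM. Its median log2 ratio was 0.77 without EGFP-positive replicate 1 and -2.39 without replicate 2.

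A gene is described here as apart when both libraries of one group exceed both of the other. In cDC1, 1315 genes were apart and higher in the EGFP-positive group, 11.5% of the genes tested, and 2729 were apart and lower, 24.0%. The remaining 7350 (64.5%) overlapped. Many of the lower genes were undetected on the EGFP-positive side: 654 of the 2729 had 0 counts in both EGFP-positive libraries, whereas 96 of the 1315 higher genes had 0 counts in both EGFP-negative ones. With a gap of at least 2-fold between the groups, measured on CPM + 1, 397 genes (3.48%) were higher and 1016 (8.92%) lower. Among the 1040 genes averaging 100 CPM or more, 143 were apart and higher (13.8%) and 357 lower (34.3%).

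No gene passed edgeR's quasi-likelihood test at a Benjamini-Hochberg adjusted p under 0.05 (0%). The smallest adjusted p was 0.0581, shared by 4 genes: Dusp6, Wls and Rnase4, higher in EGFP-positive cDC1, and Birc5, lower. Unadjusted p under 0.05 was reached by 496 genes with a higher (4.35%) and 956 with a lower (8.39%) EGFP-positive level, of which 378 and 924 were apart. DESeq2 on the same counts called 542 genes higher (4.76%) and 783 lower (6.87%), and 248 of those 1325 genes had overlapping groups. limma-voom with library quality weights called 0. The difference between the EGFP effect in cDC1 and that in cDC2 was tested as an interaction, for which edgeR called 0 genes (1180 at unadjusted p under 0.05, smallest adjusted p 0.141), DESeq2 714 and limma-voom 0. No gene below is therefore called by the main test, and levels are given as the libraries show them.

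The 15 genes with the widest gap on the higher side have varied roles. Dusp6 (chr10:99263231-99267489, GRCm38, plus strand), the phosphatase that switches off ERK kinases, had 0.0935, 0, 163 and 66.0 CPM, from 2 and 0 counts in the EGFP-negative and 3726 and 940 in the EGFP-positive libraries (edgeR adjusted p 0.0581). Wls (chr3:159839672-159938664, plus strand), the carrier that brings Wnt proteins to the cell surface, had 0.0935, 0.0466, 57.1 and 26.7 CPM, from 3 counts in the EGFP-negative group (edgeR adjusted p 0.0581). Both were near 0 in EGFP-negative cDC1 and clearly present in each EGFP-positive library. Pfkfb4 (chr9:108991778-109032228, plus strand), which sets the level of the glycolysis activator fructose 2,6-bisphosphate, had 0 counts in both EGFP-negative libraries and 41.2 and 54.3 CPM in the EGFP-positive ones. Against a floor of 3 counts over the EGFP-negative group, Pfkfb4 was at least 682-fold higher (edgeR adjusted p 0.0793). Ptgs1, the constitutive cyclooxygenase, had 0.0467, 0.0466, 41.8 and 27.5 CPM, and the lysosomal protease Ctsl 10.9, 11.8, 1045 and 222, both with an edgeR adjusted p of 0.0793. The kinesin motor Kif3a, with 0.0467, 0.0466, 25.3 and 31.7 CPM, had the same adjusted p. These genes were present in EGFP-negative cDC2, where Dusp6 had 99.9 and 65.2 CPM, Wls 34.6 and 44.0, and Pfkfb4 9.27 and 7.21. There Ptgs1 had 40.3 and 34.5 CPM, Ctsl 2504 and 1413, and Kif3a 16.1 and 11.1. Cldn12 and Mpzl2, given next, had 0 CPM in EGFP-negative cDC2.

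The other genes of the 15 follow. Pvrl2, which encodes nectin-2, a ligand of DNAM-1 and TIGIT on lymphocytes, had 1.17, 0.0466, 67.6 and 69.3 CPM, and the EGFP-positive replicates agreed closely. Cldn12 and Mpzl2, of the claudin and myelin-P0-like adhesion families, had 0 counts in EGFP-negative cDC1; Cldn12 was at least 341-fold and Mpzl2 at least 593-fold higher. Eogt, a glycosyltransferase of the secretory pathway, and Dync1li2, a light intermediate chain of dynein, were likewise at 0 counts there, Eogt being at least 244-fold and Dync1li2 at least 327-fold higher. Slc12a4, a potassium-chloride cotransporter, had 0.608, 0.513, 30.7 and 23.5 CPM. Bgn and Rnd1 were apart but unequal in the EGFP-positive pair, at 269 and 21.4 CPM and at 76.1 and 14.9. Bgn, which encodes biglycan, is one of the matrix markers given above. Zfp407, a zinc finger gene, had 18.6 and 17.5 CPM in the EGFP-positive libraries and 1 count in the EGFP-negative group.

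On the lower side, 3 of the 15 genes with the widest gap, Birc5, Aurkb and Ccnb1, are members of the cell cycle list described below. Birc5 (chr11:117849251-117855743, plus strand), which encodes survivin of the chromosomal passenger complex, had 82.9, 79.8, 0.0875 and 0 CPM, with 2 counts in the whole EGFP-positive group (edgeR adjusted p 0.0581). Its partner kinase Aurkb had 33.8, 42.0, 0.0438 and 0.0702 CPM (edgeR adjusted p 0.0777). Asf1b, a histone chaperone of replicating cells, had 36.8 and 85.0 CPM and then 0 counts, and was at least 753-fold lower. The kinetochore genes Ndc80 and Spc25, the kinesin Kif22 and the spindle gene Ckap2l also had 0 counts in both EGFP-positive libraries, and were at least 461-fold, 332-fold, 366-fold and 343-fold lower. Ccnb1, cyclin B1 of mitotic entry, had 51.7, 24.8, 0 and 0.0702 CPM. In these 8 genes the EGFP-negative libraries held at least 22.1 CPM and the EGFP-positive libraries at most 0.0875.

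The other 7 have no common role. Cd37, a tetraspanin of leukocytes, had 86.5, 87.4, 0.0438 and 1.61 CPM, although its exons overlap those of Tead2 on the opposite strand and the counting is not stated to use strand, so the genes cannot be told apart. Arhgap18, a GTPase-activating protein gene, had 115, 104, 2.76 and 0.842 CPM (edgeR adjusted p 0.0793). The kinase gene Lrrk2 had 52.1, 43.8, 0.963 and 0.842 CPM. Alad, an enzyme of haem synthesis, had 55.3, 30.0, 0 and 0.211, and Nagpa, which uncovers the mannose 6-phosphate signal of lysosomal enzymes, had 33.7 and 21.3 CPM against 0 counts, at least 340-fold lower. Fam117b, with 32.8, 27.9, 0 and 0.0702 CPM, and the sodium-proton exchanger Slc9a9, with 22.4, 28.9, 0 and 0.0702, complete them. In the annotation, exons of Ptgs1, Mpzl2, Slc12a4, Eogt, Dync1li2, Kif22, Ckap2l and Fam117b also overlap another gene, and Ctsl overlaps a processed pseudogene on its own strand. The same limit holds for Csf1r, Clec9a, Cd274, Cxcl16, Dpp4, Erap1, Hk1, Lamp1, Lss, Rpl32, Sec61a1, Tnfsf9 and Zfp407.

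**Figure D3:**
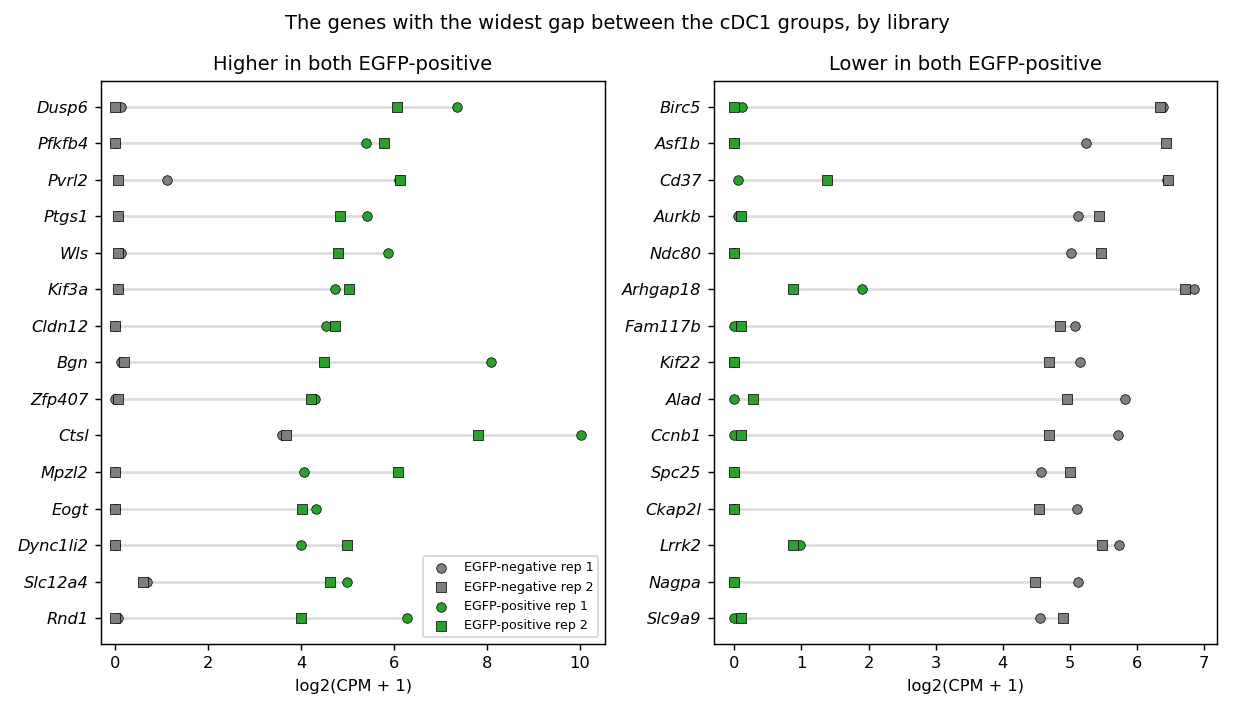
Each row is a gene and each point its log2(CPM + 1) in 1 cDC1 library, with grey for EGFP-negative, green for EGFP-positive, circles for replicate 1 and squares for replicate 2. Most genes were near 0 in one group; Bgn, Ctsl, Rnd1 and Mpzl2 show the largest spread between the EGFP-positive replicates.

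Glycolysis was the programme with the largest share of members higher in both EGFP-positive libraries among the lists read. Of 25 listed glycolysis and hypoxia symbols 23 were tested; 16 of them (69.6%, against 11.5% of all genes) were apart and higher, and 2, Hk2 and Pfkp, were apart and lower. The median log2 ratio of group means was 1.32 for the list and -0.03 over all genes tested. The list summed to 5870 and 6633 CPM in EGFP-negative and to 13864 and 16006 in EGFP-positive cDC1. The count of higher members stayed between 15 and 17 under RLE scaling, library totals and removal of Rn45s. With any 1 cDC1 library left out, the list median was 1.215 to 1.87, and that of all genes tested -0.33 to 0. edgeR called 0 of the 23 and DESeq2 called 12 higher.

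Pfkl (chr10:77986947-78010083, minus strand), the liver-type phosphofructokinase that commits glucose to glycolysis, had 24.6, 29.3, 184 and 188 CPM. Its mean was 26.9 ± 3.31 (SD, n = 2) in EGFP-negative and 186 ± 2.33 in EGFP-positive cDC1, a log2 difference of 2.79 with a standard error of 0.35 (edgeR adjusted p 0.0793). Slc16a3 (chr11:120948480-120960868, plus strand), the lactate exporter MCT4, had 38.7, 32.7, 195 and 329 CPM, a log2 difference of 2.88 with a standard error of 0.40 (edgeR adjusted p 0.0793). For both, the EGFP-positive replicates lay within 2-fold of each other and well above the EGFP-negative pair. Hexokinase 1 (Hk1), the first step of the pathway, had 5.56, 8.62, 33.2 and 46.7 CPM, while the inducible Hk2 had 11.4, 23.5, 7.22 and 5.83. The growth factor Vegfa, a hypoxia target, had 4.67, 1.86, 19.6 and 40.7 CPM.

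Further enzymes of the pathway, chosen after their values were seen, followed the same order of groups. Triosephosphate isomerase (Tpi1) had 152, 209, 636 and 928 CPM (edgeR adjusted p 0.0818), and pyruvate kinase (Pkm), the last ATP-forming step, had 758, 938, 2505 and 3431 (edgeR adjusted p 0.114). Aldolase (Aldoa) had 480, 474, 1539 and 2423 CPM, and the glucose transporter Slc2a1 29.8, 52.9, 371 and 163. From uptake of glucose to export of lactate, a measured gene of each step was thus higher in both EGFP-positive libraries, except for the isomerase Gpi1, at 253, 318, 254 and 696 CPM. Eno1 is listed at 0.280, 0.233, 1.71 and 1.12 CPM, and a near-identical copy, Eno1b, at 0.888, 1.44, 6.83 and 6.53, so the split of reads between them is uncertain. The hypoxia-inducible factor gene Hif1a itself, at 162, 131, 141 and 237 CPM, overlapped between the groups, as did Ndrg1 and Pfkm, and Egln3 had 0 counts in the 4 libraries.

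cDC2 showed the other order. There 15 of the same 23 genes were lower in both EGFP-positive libraries (19.2% of all genes tested were) and 2 higher (22.6% of all genes), and the summed level went from 18700 and 18066 CPM without EGFP to 12055 and 10228 with it. Pfkl had 109 and 123 CPM in EGFP-negative and 76.5 and 56.6 in EGFP-positive cDC2, and Slc16a3 246 and 292 against 110 and 77.1. The EGFP-positive cDC1 sum therefore lay below that of EGFP-negative cDC2. The interaction did not pass for either gene, with an edgeR adjusted p of 0.154 for Pfkl and 0.141 for Slc16a3.

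The promoters of several of these genes are shown because so many members were apart in one direction. The string ACGTG, the core of the hypoxia response element and of E-boxes of the CACGTG form, was searched on both strands in the 250 bases before each gene's start as RefSeq for GRCm38.p6 gives it. It was found for 7 of the 15 apart and higher list members that had a window (46.7%), and for 1955 of the 8735 tested genes with one (22.4%). The 7 were Slc2a1, Ldha, Bnip3, P4ha1, Slc16a3, Pgam1 and Pgk1. The windows of Slc16a3 (chr11:120948817-120949066, plus strand) and of Ldha (chr7:46845554-46845803, plus strand), chosen after their values were seen, follow with each match in capitals; CACGTG holds a match on each strand. Ldha, the enzyme that makes lactate, had 1278, 1492, 3272 and 2027 CPM. RefSeq's start of Slc16a3 lies downstream of the GENCODE gene start given above, so this window falls inside the GENCODE span. A match describes the letters and is no shown binding site. The list was chosen by function, and the share among its members that were not apart was not computed. The shares above therefore say nothing on EGFP.
Slc16a3: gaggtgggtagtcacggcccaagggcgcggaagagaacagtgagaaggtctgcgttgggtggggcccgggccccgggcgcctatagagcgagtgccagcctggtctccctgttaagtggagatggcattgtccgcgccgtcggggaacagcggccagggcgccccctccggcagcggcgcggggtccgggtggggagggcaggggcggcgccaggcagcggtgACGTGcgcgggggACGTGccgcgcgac
Ldha: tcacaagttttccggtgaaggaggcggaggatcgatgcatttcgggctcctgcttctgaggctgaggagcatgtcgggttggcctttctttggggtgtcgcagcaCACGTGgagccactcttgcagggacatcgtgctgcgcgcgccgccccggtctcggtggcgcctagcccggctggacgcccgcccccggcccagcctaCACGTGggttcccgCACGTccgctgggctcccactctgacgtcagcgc

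**Figure D4:**
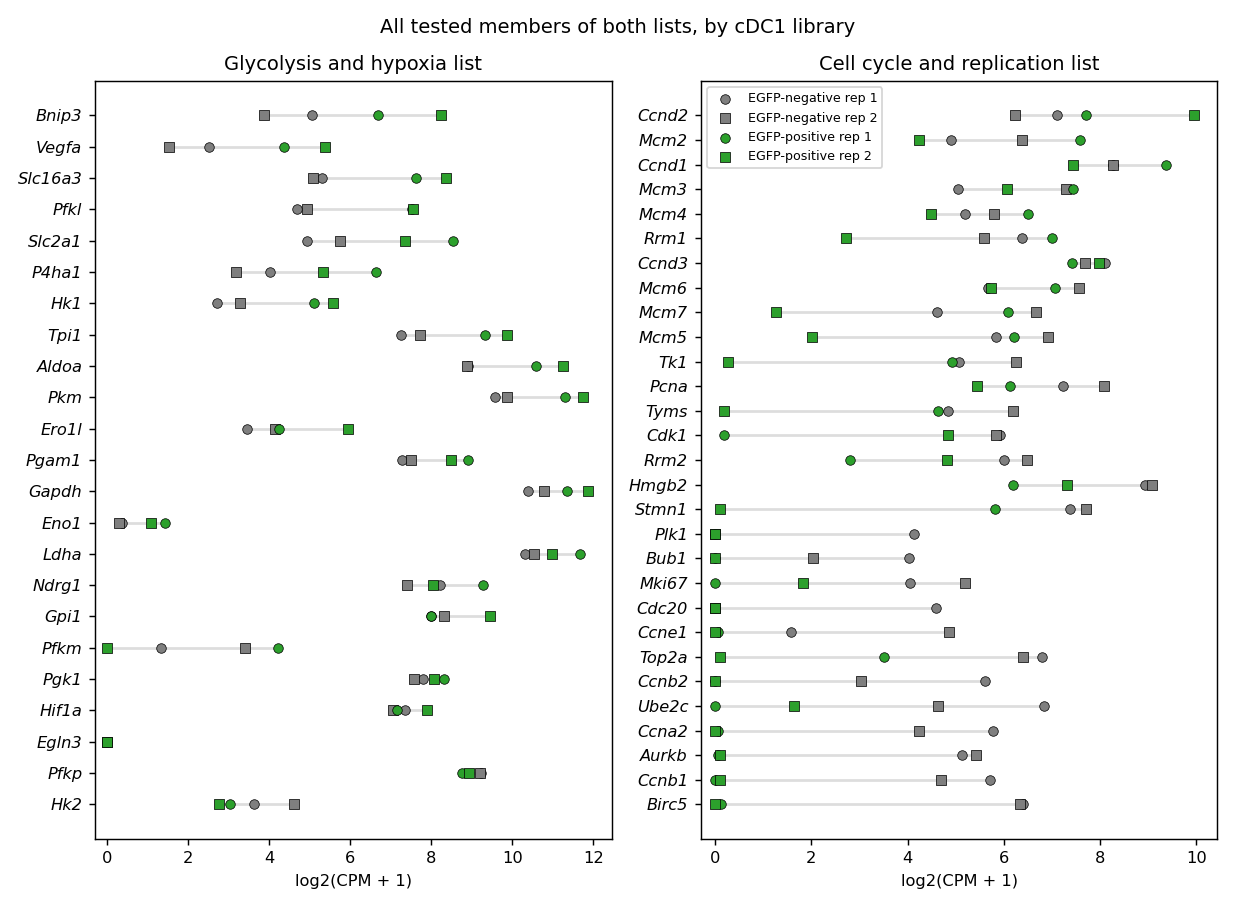
Each row is a tested member of the glycolysis and hypoxia list (left) or the cell cycle and replication list (right), ordered by the ratio of group means, and each point its log2(CPM + 1) in 1 cDC1 library. On the left 16 of 23 genes have both green points (EGFP-positive) above both grey ones (EGFP-negative); on the right 17 of 29 have both below.

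Genes of cell division were the opposite case. Of 29 listed cell cycle and replication genes, all tested, 17 (58.6%, against 24.0% of all genes) were apart and lower in EGFP-positive cDC1 and 1, the cyclin D2 gene Ccnd2, was apart and higher. The median log2 ratio was -2.11. With the 2-fold gap, 14 were lower; edgeR called 0 and DESeq2 12. Between 15 and 17 were lower under the other scalings. With any 1 cDC1 library left out, the list median was -3.35 to -1.85.

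Ccna2, cyclin A2, had 53.9, 17.9, 0.0438 and 0 CPM, although its exons overlap those of Exosc9 on the opposite strand. The other genes given here were chosen after their values were seen. Hmgb2, a chromatin protein abundant in dividing cells, had 490, 540, 71.7 and 157 CPM, and the replication clamp Pcna 149, 268, 68.9 and 42.3. The EGFP-positive pair divided over the replication genes: thymidylate synthase (Tyms) had 27.6, 72.2, 23.7 and 0.140 CPM and thymidine kinase (Tk1) 32.7, 75.1, 29.2 and 0.211, so replicate 1 stood just under the EGFP-negative range. The helicase gene Mcm2 overlapped between the groups, as did the other Mcm genes in the list. In cDC2, 0 of the 29 were apart and higher with EGFP and 10 were apart and lower, where 22.6% and 19.2% of all genes were.

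The string TTTGAA, the cell cycle genes homology region at which division genes are held silent in resting cells, was searched in the same windows on both strands. It was found for 6 of 14 apart and lower members with a window (42.9%) and for 936 of 8735 tested genes (10.7%). The members were Ube2c, Mki67, Hmgb2, Ccnb2, Cdk1 and Top2a. Here too the share among list members that were not apart was not computed, so these shares say nothing on EGFP. Cdk1, the kinase of mitotic entry, had 59.7, 55.8, 0.131 and 27.5 CPM, and the topoisomerase Top2a 110, 83.5, 10.3 and 0.0702, so their EGFP-positive replicates were low to unequal extents. Their windows (Cdk1, chr10:69352913-69353162, minus strand; Top2a, chr11:99024190-99024439, minus strand) each hold 2 matches, in capitals.
Cdk1: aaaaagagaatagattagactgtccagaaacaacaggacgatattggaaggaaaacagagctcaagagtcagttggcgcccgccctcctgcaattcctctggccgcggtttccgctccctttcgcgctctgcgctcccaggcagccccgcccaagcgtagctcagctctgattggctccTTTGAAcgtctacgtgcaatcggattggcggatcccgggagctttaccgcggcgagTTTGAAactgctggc
Top2a: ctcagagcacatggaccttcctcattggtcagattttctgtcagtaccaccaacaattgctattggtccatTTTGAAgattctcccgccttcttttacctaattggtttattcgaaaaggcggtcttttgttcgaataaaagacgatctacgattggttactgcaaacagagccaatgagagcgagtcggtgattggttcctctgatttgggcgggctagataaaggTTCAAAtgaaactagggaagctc

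**Figure D5:**
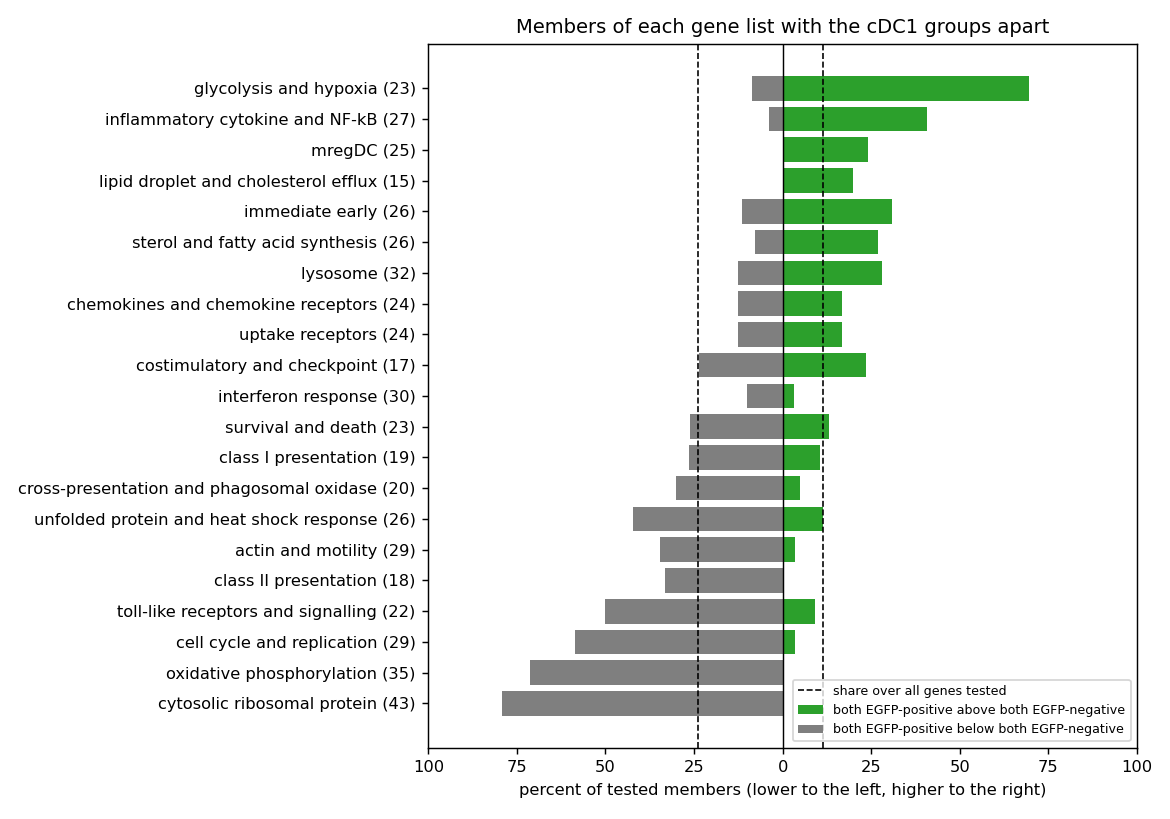
Bars give the percent of tested members of each programme list that were apart and higher (green, right) or apart and lower (grey, left) in EGFP-positive cDC1, with the number tested in brackets and dashed lines at the shares over all genes, 11.5% and 24.0%. Glycolysis leads on the right, and ribosomal protein, oxidative phosphorylation and cell cycle genes on the left.

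NF-kB targets and inflammatory genes were more often higher than lower. Of 29 listed symbols 27 were tested, with 11 apart and higher (40.7%, against 11.5% of all genes) and 1, Nfkb1, apart and lower; the median log2 ratio was 1.42. DESeq2 called 10 higher and edgeR 0. Relb, the subunit of the alternative NF-kB pathway linked to dendritic cell maturation, had 17.1, 17.3, 79.2 and 230 CPM. The inhibitors that NF-kB itself induces were also higher: Nfkbia had 192, 90.0, 1399 and 726 CPM, Nfkbie 62.5, 62.3, 211 and 287, and the ubiquitin-editing brake Tnfaip3 29.3, 18.6, 89.0 and 110. Nfkbie averaged 62.4 ± 0.155 (SD, n = 2) in EGFP-negative and 249 ± 53.9 in EGFP-positive cDC1 (edgeR adjusted p 0.14, as for Tnfaip3), and for Relb and Nfkbia the edgeR adjusted p was 0.15. Cxcl1 counts among the 11 by the narrowest of margins, 0.561 against 0.559 CPM, with its level in replicate 1 alone.

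The maturation list depended on replicate 2. Among 25 tested of 28 symbols of the mature regulatory programme (mregDC, the CCR7-positive state that dendritic cells enter after taking up tumour material), 6 were apart and higher (24%, against 11.5% of all genes) and 0 lower (against 24.0%), with a median log2 ratio of 0.92. Without EGFP-positive replicate 2 that median was -0.64. Ccr7, the receptor for migration to lymph nodes, had 277, 70.8, 368 and 5498 CPM, so replicate 1 stood little above the EGFP-negative range. The checkpoint ligands were more even: Pdcd1lg2 had 82.7, 85.0, 192 and 242 CPM and Cd274 190, 98.7, 281 and 569. Tnfsf9, the ligand of 4-1BB on T cells, had 27.1, 10.7, 87.5 and 82.4 CPM, whereas Cd48, a ligand of the lymphocyte receptor 2B4, had 312, 319, 108 and 129. In the costimulatory and checkpoint list 4 of 17 tested genes were higher (23.5%, against 11.5% of all genes) and 4 lower (23.5%, close to the 24.0% of all genes). Of the higher ones, Cd40, Cd274 and Pdcd1lg2 also count in the mregDC list. The median log2 ratio of 0.42 was -0.52 without EGFP-positive replicate 2 and 0.73 without replicate 1. Of the chemokines and their receptors 4 of 24 were higher (16.7%, against 11.5% of all genes) and 3 lower (12.5%, against 24.0%). Among them were Cxcl16 (160, 292, 384 and 1255 CPM), higher, and the receptor Cxcr3 (37.8, 89.4, 0 and 21.5), lower. The median log2 ratio of that list, 1.02, was -0.74 without EGFP-positive replicate 2.

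In the lysosome list 9 of 32 genes were apart and higher (28.1%, against 11.5% of all genes) and 4 lower (12.5%, against 24.0%), with a median log2 ratio of 0.28. The median was -0.33 without EGFP-positive replicate 2 and 0.66 without replicate 1. Besides Ctsl, the membrane protein Lamp1 had 82.0, 108, 206 and 265 CPM, the tetraspanin Cd63 52.6, 14.9, 286 and 110, and the glycogen-degrading enzyme Gaa 8.65, 0, 52.9 and 25.4. Of 24 tested uptake receptors 4 were higher (16.7%, against 11.5% of all genes) and 3 lower (12.5%, against 24.0%). Their median log2 ratio of 1.54 was -0.90 without EGFP-positive replicate 2 and 0.85 without replicate 1. Lrp1, a scavenger receptor for apoptotic cells and proteases, had 2.01, 1.72, 16.5 and 49.0 CPM (edgeR adjusted p 0.0793), and Axl, the receptor for phosphatidylserine bridged by GAS6, had 19.4, 24.4, 106 and 48.8. Against that, Havcr2, which encodes TIM-3, had 172, 231, 61.0 and 63.6 CPM, and Clec9a was lower as given above.

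Sterol synthesis was a feature of replicate 1. Of 26 tested genes 7 were apart and higher (26.9%, against 11.5% of all genes) and 2 lower (7.69%, against 24.0%), and the list summed to 640 and 814 CPM in EGFP-negative cDC1, to 3282 in EGFP-positive replicate 1 and to 772 in replicate 2. The median log2 ratio of 1.19 was -0.04 without EGFP-positive replicate 1. Mvk, the kinase of the mevalonate pathway, was higher in both, at 8.65, 8.67, 24.7 and 25.6 CPM (edgeR adjusted p 0.495), as was Lss, lanosterol synthase, at 1.82, 6.15, 48.2 and 34.7 (edgeR adjusted p 0.343). In the lipid droplet and cholesterol efflux list 3 of 15 genes were higher (20%, against 11.5% of all genes) and 0 lower (against 24.0%). Its median log2 ratio of 0.56 was -0.55 without EGFP-positive replicate 2. The higher ones include Mylip, a ubiquitin ligase gene induced by sterol-sensing nuclear receptors, at 2.85, 1.49, 7.48 and 29.5 CPM.

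Translation and respiration genes were lower by modest amounts. Of 43 tested genes for cytosolic ribosomal proteins, among 44 listed, 34 (79.1%, against 24.0%) were apart and lower and 0 higher, with a median log2 ratio of -0.47. Their number was 27 to 33 under the other scalings. The largest gaps were those of Rpl32 (901, 795, 377 and 445 CPM) and Rps29 (578, 574, 240 and 354), and neither edgeR nor DESeq2 called a member. The list summed to 32491 and 33752 CPM in EGFP-negative and to 24149 and 24392 in EGFP-positive cDC1, while in cDC2 30 of the 43 were apart and higher with EGFP (as were 22.6% of all genes there). Among 35 nuclear oxidative phosphorylation genes 25 (71.4%) were apart and lower and 0 higher, with a median of -0.56; 21 to 24 were lower under the other scalings, and RLE scaling also put 1 on the higher side. Ndufa4, a subunit assigned to complex IV, had 210, 179, 81.2 and 46.5 CPM. Processed pseudogenes of ribosomal protein genes share sequence with their parents, so the reads between them may have been split.

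In the list of toll-like receptors and their signalling 11 of 22 (50%, against 24.0% of all genes) were lower and 2 higher (9.09%, against 11.5%). Ticam1, the adaptor TRIF that TLR3 uses, had 23.8, 19.3, 1.36 and 3.02 CPM, and Tmem173, which encodes STING, had 53.7, 112, 16.2 and 15.6. Among 26 unfolded protein and heat shock genes 11 were lower (42.3%, against 24.0% of all genes) and 3 higher (11.5%, the share over all genes). Their median log2 ratio was 0.083, and 9 or 10 were lower under the other scalings. The chaperone partners Dnajc3 (242, 216, 87.7 and 39.0 CPM) and Sdf2l1 (169, 182, 53.1 and 81.9) were lower. Herpud1, of endoplasmic reticulum degradation, was higher (211, 128, 599 and 420). Of 29 actin and motility genes 10 were lower (34.5%, against 24.0% of all genes), with a median log2 ratio of -0.23. That median was 0.06 without EGFP-positive replicate 1. A single one, the gelsolin-family gene Capg, was higher, at 26.1, 69.3, 221 and 704 CPM. Thymosin beta 10 (Tmsb10) was lower, at 3058, 2408, 802 and 1293. In the immediate early list 8 of 26 were higher (30.8%, against 11.5% of all genes) and 3 lower (11.5%, against 24.0%). Its median log2 ratio of 0.25 was -0.30 without EGFP-positive replicate 2 and 0.42 without replicate 1. Egr1 had 12.5, 2.38, 116 and 64.2 CPM and Ier3 83.1, 34.4, 466 and 165. Of 23 survival and death genes 3 were higher (13%) and 6 lower (26.1%), which are about the shares over all genes; Cflar, whose product restrains death receptor signalling, had 23.6, 4.19, 43.5 and 174 CPM (edgeR adjusted p 0.288).

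The class I list was at about the shares over all genes, 11.5% higher and 24.0% lower, and the lower shares of the class II and cross-presentation lists were near the latter, so their counts are no result about them. Of 19 tested class I presentation genes 2 were apart and higher (10.5%) and 5 lower (26.3%), among the latter the peptide trimmer Erap1, at 43.9, 59.1, 13.6 and 32.4 CPM. Of 18 class II genes 0 were higher and 6 lower (33.3%): the invariant chain Cd74 had 29024, 30257, 18890 and 27205 CPM, so replicate 2 lay close to the EGFP-negative range. Of 20 cross-presentation and phagosomal oxidase genes 1 was higher (5%) and 6 lower (30%), including Sec61a1, a subunit of the translocon, at 102, 107, 45.1 and 36.4 CPM. Of 30 interferon response genes 1 was higher (3.33%) and 3 lower (10%), with a median log2 ratio of 0.02. That median was -0.92 without EGFP-positive replicate 2 and 0.42 without replicate 1, so the replicates lay on opposite sides of the EGFP-negative level, and it was -0.07 with library totals. Dpp4, the target of sitagliptin and a marker of cDC1, had 181, 184, 48.0 and 104 CPM (edgeR adjusted p 0.674), and Flt3, the receptor for the growth factor of the lineage, had 208, 171, 67.2 and 67.9 (edgeR adjusted p 0.828). Both were apart and lower, without passing the test.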

How the data were processed

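RNA of sorted cDC1 and cDC2 was turned into cDNA by a published low-input full-length method and made into libraries with a KAPA kit, per the labels' protocols. Trimmomatic 0.39, STAR 2.7.5c, Cufflinks 2.2.1 and build mm10 are named in the submitters' processing notes; which read counter and annotation were used, and whether counting used strand, is not given in the sources used here. In the deposited table are the authors' raw read counts for 24369 gene symbols in 8 columns, each matched to its sample by name. It holds no EGFP symbol and no mitochondrially encoded gene, so neither the sort nor mitochondrial RNA was checked.

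Counts were tested with edgeR 4.0.16 in R 4.3.3: filterByExpr by group left 11394 genes, TMM scaling, glmQLFit with robust estimation on all 8 libraries with 1 mean per group, and glmQLFTest, two-sided, with Benjamini-Hochberg adjustment. A standard error given with a log2 difference was derived as the absolute log2 difference over the square root of the test's F statistic. It therefore rests on the spread estimated over all 8 libraries. Levels are TMM-scaled CPM computed from the counts. A gap is log2 of the lowest library of the higher group plus 1 CPM over the highest of the lower group plus 1, and a list median is of log2((mean EGFP-positive CPM + 1)/(mean EGFP-negative CPM + 1)). A group at 0 was given a floor of 3 counts over the group, 0.0700 CPM for EGFP-negative and 0.0809 for EGFP-positive cDC1, which covers counting error only. DESeq2 1.42.0 and limma 3.58.1, other scalings and filters, a replicate block and left-out libraries were alternatives. The common dispersion was 1.28.

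Genes were named by a rule: the 15 widest gaps each way, up to 4 members of each of 35 lists with the groups apart, a mean of at least 5 CPM and the widest gap, markers for the label, and the 10 genes a side on which the EGFP-positive replicates differed most with at least 100 CPM. Genes were left out where their symbol is that of a predicted gene, clone or pseudogene. Not every gene given is described; single members named in counts, the marker genes beside list sums, members whose groups overlap, and Rnase4 were chosen after their values were seen. The red blood cell list had 0 tested members, and of 4 tested ribosomal and abundant noncoding RNAs 0 were apart. The comparison, the lists and the rule were chosen with earlier results of these data known. Gene positions are from GENCODE M21, in which 23204 symbols (95.2%) were found. Some items are not reported here. The steps were tested on simulated data.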

Additional observations from a re-analysis of the deposited data

Results flagged for a closer look

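Some genes and summed lists went one way with EGFP in both cDC1 libraries and the other way in both cDC2 libraries. For the single genes the difference was tested as an interaction, and none passed; for the summed levels the difference was not tested. Dusp6 averaged 114.5 CPM in EGFP-positive and 0.0467 in EGFP-negative cDC1, and 41.4 against 82.5 in cDC2 (edgeR interaction adjusted p 0.141). Ptgs1 averaged 34.7 against 0.0467 CPM in cDC1 and 17.2 against 37.4 in cDC2 (0.154 in the same edgeR test). The opposite order was seen for Fam117b, at 0.0351 against 30.3 CPM in cDC1 and 29.6 against 21.04 in cDC2 (edgeR adjusted p 0.154), and for Alad, at 0.105 against 42.7 in cDC1 and 25.4 against 12.7 in cDC2 (0.286). Slc9a9 averaged 0.0351 against 25.6 CPM in cDC1 and 6.15 against 1.07 in cDC2 (edgeR adjusted p 0.411).

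The summed level of the glycolysis and hypoxia list averaged 14935 CPM in EGFP-positive and 6252 in EGFP-negative cDC1, and 11142 against 18383 in cDC2. The inflammatory cytokine and NF-kB list averaged 11740 against 4440 CPM in cDC1 and 8928 against 12028 in cDC2. The cytosolic ribosomal protein list averaged 24270 against 33121 CPM in cDC1 and 28591 against 20762 in cDC2.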

How the results depend on the processing

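edgeR called 0 genes for EGFP in cDC1 with RLE scaling, without robust estimation, without Rn45s, at 10 CPM or more in 2 libraries and with the 4 cDC1 libraries alone, and limma-voom with quality weights also called 0. DESeq2 called 1325 genes (327 on the cDC1 libraries alone), and edgeR without a low-count filter 57, each of them apart. Leaving out 1 library gave 0 to 1050: 763 without EGFP-positive replicate 1, 1050 without replicate 2, and 0 without any other, the lone sample then being assumed to vary like the other groups. The interaction gave 714 genes with DESeq2, 29 without the filter and 0 to 668 with 1 library left out (515 and 668 without EGFP-positive replicates 1 and 2).

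Genes apart and higher numbered 397 and genes apart and lower 1016 with a 2-fold gap. The lower count was 1761 at 10 CPM in 2 libraries and 1399 at a mean of 10 CPM over the 4 cDC1 libraries. With 1 cDC1 library left out, which makes the rule easier to meet, the counts were 1937 to 3494 higher and 3899 to 4735 lower. The correlation of the EGFP-positive pair was 0.526 at 10 CPM in 2 libraries. The 116 named genes kept their direction in 1971 alternative fits. They were chosen because their groups were apart, so that outcome was largely set by the choice. Of these genes 64 passed the threshold with DESeq2 and 25 with edgeR without a low-count filter. With RLE scaling, a replicate block or limma-voom with quality weights 0 passed.

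Replicate numbers are shared between groups, and the titles of same-numbered libraries of all groups share a code. The labels do not say whether that code stands for an animal or a batch. Deviations of same-numbered cDC1 libraries correlated at 0.0125, and those of EGFP-positive cDC1 and EGFP-positive cDC2 at -0.224. Every other pair of groups lay between -0.0172 and 0.0408. With the number as a replicate block, edgeR called 0 genes for EGFP in cDC1 (1031 at unadjusted p under 0.05), 0 on the cDC1 libraries alone and 0 for the interaction. The biological coefficient of variation was 1.13. For genes with 0 counts in a group, the depth gives the fold only as a lower bound.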
